A study of Mus musculus with 27 samples.

Results

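The genes of the Hedgehog pathway described here are the ligand Shh, the receptor Ptch1, the signal transducer Smo, the transcription factors Gli1, Gli2 and Gli3, and the ligand-binding antagonist Hhip. They were taken by symbol from a table of 38168 features, and each of these 7 genes had a single entry. Gene expression was measured by RNA-seq of total RNA in 27 libraries of whole retina from wild type C57BL/6J mice, the standard inbred laboratory strain. The mice carried no transgene or treatment, and age was the difference between groups. There were 3 libraries at embryonic day 14 (E14), 3 at E17, 4 at postnatal day 1 (P1), 3 at P6, 4 at P15, 4 at P28 and 6 at P60. Libraries were made from pooled retinas, except that at P60 some libraries were pools and others single mice, without the labels saying which. Per the study's methods, embryos and P1 pups were of mixed sex and older mice were males, so that the step from P1 to P6 was also a step from mixed sexes to males, and the 2 cannot be told apart.

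Hedgehog signaling starts when a secreted ligand binds Ptch1, a membrane protein of the primary cilium that otherwise holds Smo inactive. Active Smo lets the Gli proteins turn on target genes instead of being cut into repressors: Gli2 is the main activator, Gli3 the main repressor, and Gli1 an activator that is itself a target gene. Ptch1 and Hhip are also target genes, and both limit the signal by binding ligand. In the developing retina, ganglion cells are a known source of Shh, and dividing progenitor cells are a known site of the response.

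Ptch1 and Hhip are both induced by Gli proteins in many tissues, so their upstream sequences are shown as context for the values that follow. These are the 250 bases before the start of a RefSeq transcript on the minus strand (GRCm38.p6), at chr13:63565736-63565985 for Ptch1 and chr8:80058009-80058258 for Hhip, written 5′ to 3′ with each GC box (GGGCGG on either strand) in capitals. The Ptch1 start used here is also that of a GENCODE transcript, and it lies 7863 bases inside the gene as GENCODE bounds it, so that the window is upstream of this transcript but not of the outermost Ptch1 start.
Ptch1: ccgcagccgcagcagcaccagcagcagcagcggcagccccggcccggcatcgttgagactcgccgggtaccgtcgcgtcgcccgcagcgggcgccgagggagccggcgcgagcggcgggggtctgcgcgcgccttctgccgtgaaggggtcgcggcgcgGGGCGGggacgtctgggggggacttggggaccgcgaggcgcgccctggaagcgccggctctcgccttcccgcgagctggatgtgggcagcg
Hhip: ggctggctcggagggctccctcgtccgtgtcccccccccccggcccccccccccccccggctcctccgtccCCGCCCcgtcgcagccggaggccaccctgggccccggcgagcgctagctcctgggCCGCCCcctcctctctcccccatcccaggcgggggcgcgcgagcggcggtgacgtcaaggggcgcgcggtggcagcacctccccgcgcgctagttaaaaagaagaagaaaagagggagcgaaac
Upstream sequences were found for 5 of the 7 genes (Ptch1, Smo, Gli2, Gli3 and Hhip). The Gli consensus GACCACCCA was in 0.225% of all 32851 upstream sequences of this length, and its core CCACCCA, which lies within it, in 8.11%. With both strands searched, 0 of the 5 held either of them, which says only that these letters are not in these windows. A GC box was in 4 of the 5, against 32.7% of all. The G and C content was 78.4% upstream of Ptch1 and 76.0% upstream of Hhip, against a median of 52.4% over all upstream sequences.

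Values are CPM, the reads of a gene scaled to the same total in every library. A library held 7076646 to 11330762 recovered reads, so that 1 read was worth 0.0882 to 0.141 CPM. Progenitor markers (10 genes, among them Mki67 and Top2a) summed to 5784 to 6033 CPM at E14 and 508 to 620 CPM at P60. Rod markers (7 genes) summed to 23.6 to 30.6 CPM at E14 and 25751 to 31655 CPM at P60, so that markers of retina were present at both ends of the series. Of neighboring tissue, 4 lens genes had a low sum of 2.26 to 9.44 CPM over all libraries. Markers of the retinal pigment epithelium (7 genes) summed to 6.96 to 11.3 CPM at E14 and 4.59 to 8.89 CPM at E17. Their sum was 50.3 to 74.9 CPM at P15, 40.0 to 45.3 CPM at P28 and 22.2 to 69.1 CPM at P60. In mature against embryonic retina 5 of these 7 were higher and 0 lower, against 35.0% and 40.4% of all features. The part of this tissue in the pathway values was not tested. In bulk tissue, fewer cells of a type and less RNA per cell cannot be told apart. Log2 fold changes are on the log2(CPM + 1) scale with their standard error (SE), which understates the change of low genes, and adjusted p-values are from limma over 31760 features. Mature means P15, P28 and P60 (14 libraries), and embryonic means E14 and E17 (6 libraries).

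**Figure D1:**
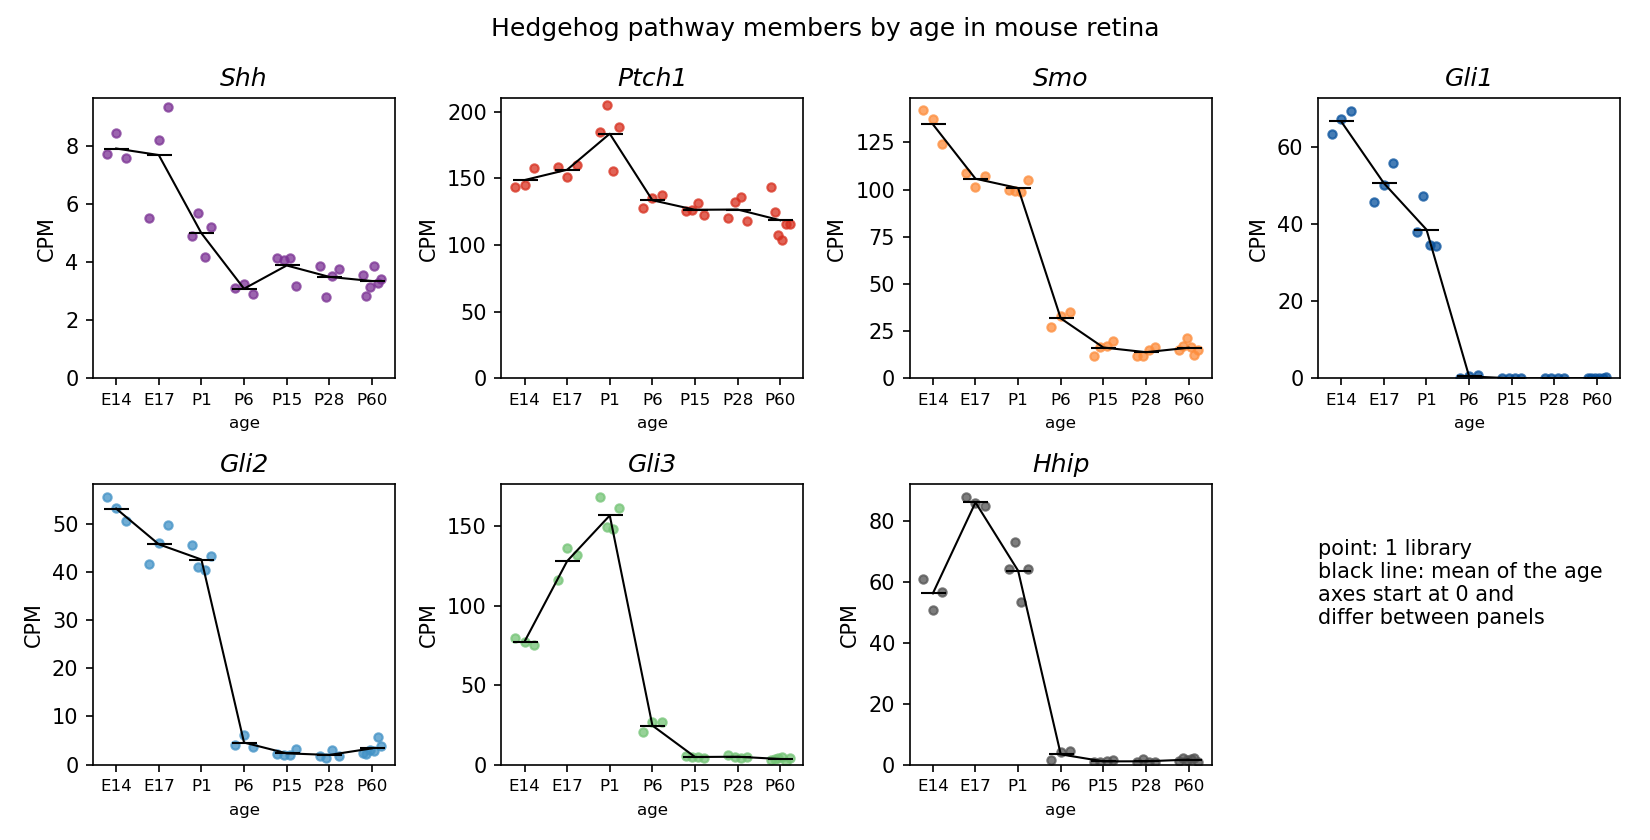
CPM of the 7 Hedgehog pathway genes in each of the 27 libraries by age. Each point is 1 library, the line joins the age means, and each linear axis starts at 0. Gli1, Gli2 and Hhip were at or below 6.06 CPM from P6 on, while Ptch1 stayed between 104 and 143 CPM from P6 on.

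Shh encodes Sonic hedgehog, the ligand. It was the least abundant of these genes per exon length at E14, at 2.78 ± 0.16 CPM per kb (SD, n = 3), against 6.19 ± 0.56 for Hhip, the next lowest. The gene lies on chromosome 5 (28456815 to 28467256, minus strand, GENCODE annotation of GRCm38). Shh was at 7.70, 8.44 and 7.58 CPM at E14 and at 5.52, 8.21 and 9.32 CPM at E17. It was at 4.91, 5.67, 4.18 and 5.20 CPM at P1 and at 3.11, 3.24 and 2.90 CPM at P6. The E17 libraries were spread widely and overlapped with P1, while every P6 library was below every P1 library. Shh was at 4.15, 4.08, 4.14 and 3.16 CPM at P15 and at 3.86, 2.81, 3.52 and 3.77 CPM at P28, and its lowest, median and highest values at P60 were 2.82, 3.36 and 3.87 CPM. Shh was thus detected in each mature library, from 20 to 35 reads, with the ranges of neighboring mature ages overlapping. The mature level was 0.458 of the embryonic level (log2 fold change -0.94, SE 0.11, adjusted p = 4.1e-09), and the 2 groups did not overlap. In order of mean level, E14 and E17 came first, then P1, then P15, P28, P60 and P6, and of neighbors in this order P1 and P15 did not overlap. The annotated antisense gene 9530036O11Rik covers 8983 bases of the Shh locus on the other strand. It was at 2.93 CPM at E14, 0.942 CPM at P6 and 1.71 CPM at P60 on average, and whether counting used the strand is not given in the sources used here, so that part of the Shh value may be shared with it.

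Ptch1, the receptor for Shh, had the smallest change of the 7 between embryonic and mature retina. It lies on chromosome 13 (63508328 to 63573598, minus strand). Ptch1 was at 143, 145 and 158 CPM at E14 and at 158, 151 and 160.0 CPM at E17. It was at 184, 205, 156 and 188 CPM at P1 and at 128, 135 and 137 CPM at P6. The highest mean was at P1 (183 ± 20.5 CPM, SD, n = 4), although 1 P1 library lay within the E17 range. Ptch1 was at 126, 126, 131 and 123 CPM at P15 and at 120.3, 132, 136 and 118 CPM at P28, and its lowest, median and highest values at P60 were 104, 116 and 143 CPM. The mature libraries overlapped with the embryonic ones at their upper end. The mature level was 0.812 of the embryonic level (log2 fold change -0.30, SE 0.06, adjusted p = 2.5e-05). In order of mean level, P1, E17 and E14 were followed by P6, P28, P15 and P60, and of neighbors in this order E14 and P6 did not overlap.

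Smo, the transmembrane protein that passes the signal on, lies on chromosome 6 (29735503 to 29761365, plus strand). Smo was at 142, 138 and 124 CPM at E14 and at 109, 101.4 and 107 CPM at E17. It was at 99.6, 99.5, 98.9 and 105 CPM at P1 and at 27.4, 32.8 and 35.2 CPM at P6. Each E14 library was above each E17 library, and P1 stood far above P6. Smo was at 12.0, 16.5, 17.04 and 19.8 CPM at P15 and at 12.0, 11.7, 15.02 and 16.7 CPM at P28, and its lowest, median and highest values at P60 were 12.4, 15.8 and 21.5 CPM. In order of mean level, E14, E17 and P1 were followed by P6, P15, P60 and P28, and of neighbors in this order E17 and P1 overlapped, as did the 3 mature ages. The embryonic level was 7.77-fold higher than the mature level (log2 fold change -2.89 for mature against embryonic, SE 0.09, adjusted p = 3.5e-23).

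Gli1, the activator that is itself induced by the pathway, lies on chromosome 10 (127329882 to 127341974, minus strand). Gli1 was at 63.5, 67.3 and 69.4 CPM at E14, at 45.8, 50.3 and 56.0 CPM at E17 and at 38.1, 47.4, 34.6 and 34.4 CPM at P1. At P6 it was at 0.141, 0.541 and 0.827 CPM, which is 1, 5 and 6 reads. Gli1 was thus lost almost whole between P1, where the lowest library had 291 reads, and P6. In the mature retina, 10 of 14 libraries had 0 reads and the others 1 or 2, which is at or below the floor of 3 reads per library (at most 0.422 CPM). Against that floor, Gli1 was at least 139-fold higher in embryonic than in mature retina, and at least 91.5-fold higher at P1. The log2 fold change of mature against embryonic was -5.83 (SE 0.11, adjusted p = 2.5e-29), a size set by the added 1 CPM. Gli1 expression in the mature retina was not detectable at this depth, which does not show that it is absent. In order of mean level, E14, E17 and P1 were followed by P6, and of these E17 and P1 overlapped, as did P6 and P60. An antisense gene, Gm47200, covers 9584 bases of the Gli1 locus.

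Gli2, the main activator, lies on chromosome 1 (118834132 to 119053619, minus strand). Gli2 was at 55.5, 53.4 and 50.6 CPM at E14, at 41.6, 46.0 and 49.7 CPM at E17 and at 45.6, 41.0, 40.5 and 43.3 CPM at P1. It was at 4.10, 6.06 and 3.58 CPM at P6. The groups up to P1 stood far above P6, with each E14 library above each E17 library and an overlap of E17 and P1. Gli2 was at 2.14, 1.98, 2.07 and 3.16 CPM at P15 and at 1.87, 1.26, 3.11 and 1.76 CPM at P28, and its lowest, median and highest values at P60 were 2.25, 2.89 and 5.77 CPM. From P6 on, the order of mean levels was P6, P60, P15 and P28, and neighbors in it overlapped. The embryonic level was 19.3-fold higher than the mature level (log2 fold change -3.87 for mature against embryonic, SE 0.13, adjusted p = 2.4e-22), but unlike Gli1 it left 9 to 42 reads in each mature library.

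Gli3, the main repressor, lies on chromosome 13 (15463235 to 15730026, plus strand). Gli3 was at 79.4, 77.2 and 75.1 CPM at E14, at 116, 136 and 132 CPM at E17 and at 168, 149, 148 and 161 CPM at P1. Each E17 library was above each E14 library, and each P1 library was above each E17 library. Gli3 was then at 20.3, 26.8 and 26.5 CPM at P6, at 5.62, 4.87, 4.62 and 3.99 CPM at P15 and at 6.26, 4.63, 4.06 and 4.78 CPM at P28. Its lowest, median and highest values at P60 were 1.51, 3.70 and 4.75 CPM. P6 lay between the early and the mature libraries and overlapped with neither, while P28, P15 and P60, in this order, overlapped. The embryonic level was 23.3-fold higher than the mature level (log2 fold change -4.25, SE 0.12, adjusted p = 5.7e-25). The transcript Gm6556 overlaps 502 bases of Gli3 on the other strand, and its mean went from 12.8 CPM at E14 to 26.4 CPM at P1 and 3.75 CPM at P6.

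Hhip, a membrane-anchored protein that binds the ligand and so limits signaling, lies on chromosome 8 (79965851 to 80058006, minus strand). Hhip was at 60.9, 50.8 and 56.7 CPM at E14, at 87.6, 85.7 and 84.7 CPM at E17 and at 64.0, 72.9, 53.5 and 64.0 CPM at P1. It was at 1.41, 4.11 and 4.55 CPM at P6. E17 stood above both neighboring ages without overlap, and P6 was below all earlier libraries. Hhip was at 0.937, 0.790, 1.10 and 1.37 CPM at P15 and at 0.933, 1.69, 0.812 and 0.880 CPM at P28, and its lowest, median and highest values at P60 were 0.857, 1.69 and 2.20 CPM. These are 6 to 17 reads per library. P1 and E14 overlapped, as did P6, P60, P28 and P15 in this order of mean level. The embryonic level was 56.9-fold higher than the mature level (log2 fold change -5.00 for mature against embryonic, SE 0.14, adjusted p = 1.2e-24).

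Between embryonic and mature retina, all 7 genes fell, with log2 fold changes from -0.30 for Ptch1 to -5.83 for Gli1. Of all features tested, 40.4% fell in this comparison. The median log2 fold change was -3.87 for the 7 genes and -0.06 for all features. The libraries of the 2 groups did not overlap for 6 of the 7, all but Ptch1, and for 40.4% of all features. All 7 also varied over the 7 ages by limma's F test, as did 83.0% of features.

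The fall was placed by comparing each age with the one before. From E14 to E17, Gli3 rose (log2 fold change 0.72, SE 0.20, adjusted p = 0.012), alone among the 7, and 7.56% of all features rose. The libraries of the 2 ages did not overlap for 5 of the 7 (Gli3 and Hhip higher, Smo, Gli1 and Gli2 lower) and for 36.8% of features. The Gli3 call was lost without E17 replicate 2 (adjusted p = 0.062) or E17 replicate 3 (adjusted p = 0.051). Hhip was 1.53-fold higher at E17 and did not pass the limma test (log2 fold change 0.61, SE 0.24, adjusted p = 0.11), but it passed with edgeR (adjusted p = 0.016) and DESeq2 (adjusted p = 0.0017) on the recovered reads, and with limma without P6 replicate 1 (adjusted p = 0.038). Gli1, lower at E17, passed with DESeq2 (log2 fold change -0.45, adjusted p = 0.023). In a limma fit of these 2 ages alone, Gli3 and Hhip were called higher, and Smo (log2 fold change -0.34, adjusted p = 0.0043) and Gli1 (-0.39, adjusted p = 0.0081) lower. From E17 to P1, limma called 0 of the 7, against 9.21% of all features, and 2 of the 7 (Gli3 and Hhip) did not overlap, as for 25.8% of features. Shh (log2 fold change -0.51, SE 0.17, adjusted p = 0.053), Ptch1 and Gli1 had an unadjusted p under 0.05, and edgeR called Shh (adjusted p = 0.025) while DESeq2 called Shh, Gli1 and Hhip. Shh also passed with limma without any one of E17 replicate 1, P15 replicate 4, P60 replicate 3 or P60 replicate 5, and Ptch1 without P1 replicate 3 (adjusted p = 0.036).

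From P1 to P6, all 7 fell, against 20.4% of all features, and for each of the 7 the libraries did not overlap, as for 47.9% of features. What was left at P6 differed widely. The mean at P6 was 72.8% of that at P1 for Ptch1 (log2 fold change -0.45, SE 0.09, adjusted p = 0.00014), 61.8% for Shh (-0.55, SE 0.17, adjusted p = 0.010) and 31.5% for Smo (-1.64, SE 0.14, adjusted p = 5.1e-11). It was 15.7% for Gli3 (-2.63, SE 0.18, adjusted p = 1.8e-13), 10.8% for Gli2 (-2.99, SE 0.21, adjusted p = 1.9e-13), 5.28% for Hhip (-3.97, SE 0.22, adjusted p = 7.6e-16) and 1.30% for Gli1 (-4.74, SE 0.17, adjusted p = 2.4e-20). Progenitor markers went the same way in the same libraries. Their sum was 4221 to 4612 CPM at P1 and 955 to 1040 CPM at P6, with 9 of 10 genes lower and 1 higher. Mki67, a marker of dividing cells, went from a mean of 2259 CPM to 64.9 CPM. Rod markers rose (7 of 7), from a sum of 183 to 209 CPM to one of 3425 to 4273 CPM. The part of these shifts in cell makeup in the Hedgehog values was not tested.

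From P6 to P15, 5 of the 7 fell further, against 19.0% of all features. Their libraries did not overlap either, as for 42.7% of features. These were Gli3 (log2 fold change -2.14, SE 0.18, adjusted p = 6.0e-11), Hhip (-1.01), Smo (-0.93), Gli2 (-0.73) and Gli1 (-0.56). For Gli1, the P6 libraries had 1, 5 and 6 reads and the P15 libraries 0. Its lack of overlap thus rests on 1 read, which is below the floor of 3 reads per library. The Gli1 call was lost without P6 replicate 3 (adjusted p = 0.11) and the Gli2 call without P6 replicate 2 (adjusted p = 0.077). Shh (log2 fold change 0.25, SE 0.17, adjusted p = 0.27) and Ptch1 (-0.08, SE 0.09, adjusted p = 0.55) did not pass the test, with 95% intervals of -0.09 to 0.60 and -0.26 to 0.11. From P15 to P28, limma, edgeR and DESeq2 called 0 of the 7, limma's unadjusted p was under 0.05 for 0 of them, and 2.72% of all features were called. From P28 to P60, Gli2 rose 1.68-fold (log2 fold change 0.53, SE 0.18, adjusted p = 0.044), against 4.8% of all features. The P28 and P60 libraries of Gli2 overlapped. The call was lost without any one of 16 libraries, which were each of E14 and E17, P1 replicates 1, 3 and 4, P28 replicates 1, 2 and 4, and P60 replicates 3, 4, 5 and 6, with an adjusted p of up to 0.18. Gli3 in that step was at a log2 fold change of -0.43 (SE 0.15, adjusted p = 0.060), and it passed without P60 replicate 2, 4 or 6.

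**Figure D2:**
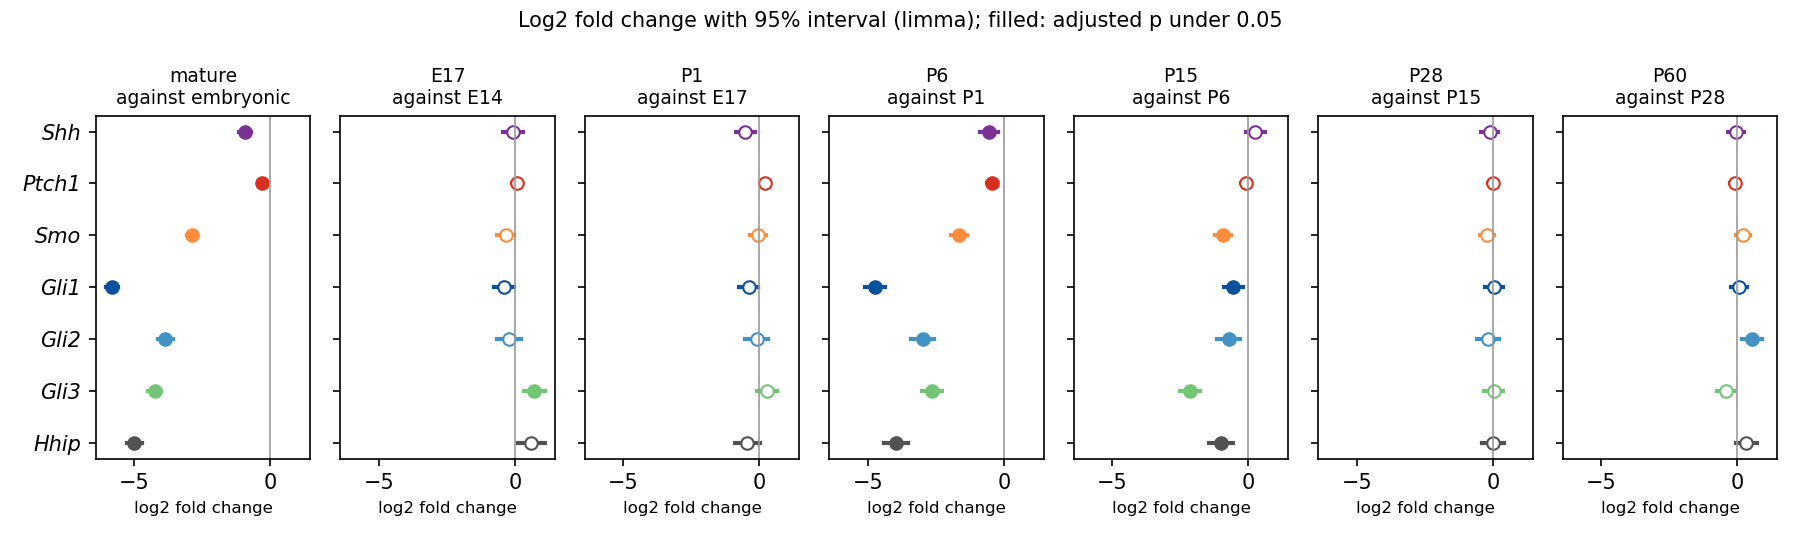
Log2 fold change (horizontal axis) of the 7 genes in the mature against embryonic comparison and in each step between ages. Points are limma estimates on the log2(CPM + 1) scale, lines are 95% intervals, and filled points have an adjusted p under 0.05. All 7 points are filled in the mature against embryonic and the P6 against P1 panels, and 0 of 7 in P1 against E17 and in P28 against P15.

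Members of the pathway thus differed in how far they fell, and 6 pairs were compared by the difference of their log2(CPM + 1) values within each library, with an exact permutation test over the 6 embryonic and 14 mature libraries (two-sided, adjusted over the 6 pairs). Ptch1 minus Smo was 0.35 ± 0.26 (SD, n = 6) in embryonic and 2.92 ± 0.31 (SD, n = 14) in mature retina, so that Smo fell further and the difference was 2.57 (exact permutation, adjusted p = 5.2e-05). Hhip minus Ptch1, the 2 ligand-binding targets whose upstream sequences are shown above, went from -1.12 ± 0.31 to -5.78 ± 0.36, a difference of -4.65 (exact permutation, adjusted p = 5.2e-05). The groups of both pairs did not overlap. Shh minus Ptch1 went down by less, from -4.14 ± 0.25 to -4.77 ± 0.19, a difference of -0.64 (exact permutation, adjusted p = 7.7e-05). The groups overlapped for this pair. The unadjusted p of the first 2 pairs, 2.58e-05, is the smallest that 38760 divisions of the libraries can give. Each group pools several ages, so that its SD holds differences between ages as well as between libraries.

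Among the Gli genes, Gli1 fell further than Gli2, with a difference of -2.0 (exact permutation, adjusted p = 5.2e-05), and further than Gli3, with one of -1.54 (exact permutation, adjusted p = 0.00012). Both sizes rest on the added 1 CPM, because mature Gli1 was at the floor, and with 0.1 CPM added they were -4.56 and -4.24. With 1 CPM added, the groups did not overlap for Gli1 minus Gli2, whereas they did for Gli1 minus Gli3. Gli2 minus Gli3 changed from -0.997 ± 0.51 to -0.53 ± 0.71, a difference of 0.46 that did not pass the test (exact permutation, adjusted p = 0.17), and their groups overlapped. Per exon length, the makeup of the Gli transcripts shifted before their total was lost. Gli1 was 45.8 ± 2.0% (SD, n = 3) of summed Gli CPM per kb at E14, 33.6 ± 1.2% (n = 3) at E17 and 25.5 ± 3.4% (n = 4) at P1. Each E14 share was above each E17 share, and each E17 share was above each P1 share. Gli3 was 27.6 ± 0.78% at E14, 44.3 ± 1.6% at E17, 54.0 ± 2.6% at P1 and 77.1 ± 3.1% at P6. Gli3 was 59.5 ± 8.2% at P15 and 64.0 ± 11.7% at P28 (n = 4 each). Gli1 thus had the largest mean share at E14 and Gli3 at each age from E17 to P28. The E14 order rests on the exon lengths (4.995 kb for Gli1 and 9.589 kb for Gli3). In CPM, the E14 mean of Gli3 (77.3) was above that of Gli1 (66.7). Shares of RNA do not show how much Gli protein was cut into repressors. At P60 Gli2 had 55.2 ± 13.6% and Gli3 43.2 ± 14.2% (n = 6), and Gli2 was ahead in 4 of 6 libraries. Without P60 replicate 5, where Gli2 had 81.9%, the means were 49.9 ± 4.0% and 48.7 ± 4.4% (n = 5). The mature shares rest on few reads.

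**Figure D3:**
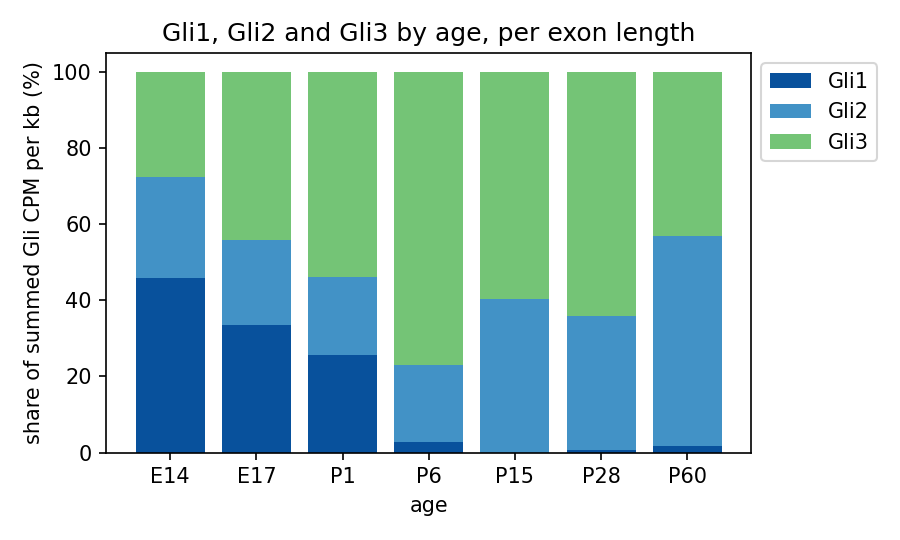
Mean share (%) of Gli1, Gli2 and Gli3 in their summed CPM per kb of exon, by age. The Gli1 share went from 45.8% at E14 to 2.90% at P6, and the Gli3 share from 27.6% to 77.1%.

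Shh was set against its known source, the ganglion cells, by 3 markers in the same libraries: Pou4f1 and Pou4f2, which encode transcription factors of these cells, and Rbpms, an RNA-binding protein gene. Their summed level was 372 ± 2.3 CPM at E14 (SD, n = 3), 415 ± 28.1 at E17, 237 ± 16.2 at P1, 108 ± 10.4 at P6, 95.9 ± 4.2 at P15, 91.2 ± 2.9 at P28 and 79.6 ± 6.3 at P60. These 3 fell further than Shh, whereas the sum of a wider list of 12 ganglion cell markers did not. Shh was 2.12 ± 0.13% of the sum of the 3 markers at E14, 1.85 ± 0.43% at E17, 2.11 ± 0.26% at P1, 2.88 ± 0.17% at P6, 4.05 ± 0.45% at P15, 3.84 ± 0.58% at P28 and 4.25 ± 0.75% at P60. On the log2(CPM + 1) scale, Shh minus the 3 markers was 1.21 higher in mature than in embryonic retina (exact permutation, two-sided, p = 2.58e-05, the smallest the 38760 divisions can give), without overlap. The wider list of 12 adds Pou4f3, Isl1, Sncg, Nefl, Nefm, Nefh, Thy1, Slc17a6 and Atoh7 to the 3 markers. From P1 to P6, 6 of the 12 rose and 5 fell, against 18.0% and 20.4% of all features. Isl1 went from a mean of 80.3 CPM to 285 CPM, and Atoh7 from 8.73 CPM to 0.534 CPM. How far each of the 12 stands for ganglion cells alone at each age was not tested. With these 12, of which 8 were lower and 3 higher in mature retina, the direction turned. Shh was 0.487 ± 0.12% of their sum in embryonic (SD, n = 6) and 0.356 ± 0.057% in mature retina (n = 14), and the difference on the log2(CPM + 1) scale was -0.25 and did not pass the test (exact permutation, two-sided, p = 0.078), with groups that overlapped. The added 1 CPM understates the fall of Shh but hardly that of either sum, which moves both 1.21 and -0.25 upward. The wider list was run with 1 CPM added only. By age, the percentage of the wider sum was highest at P1 (0.70 ± 0.11%) and lowest at P15 (0.321 ± 0.077%). Whether Shh fell more or less than ganglion cell markers thus depended on the markers used.

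**Figure D4:**
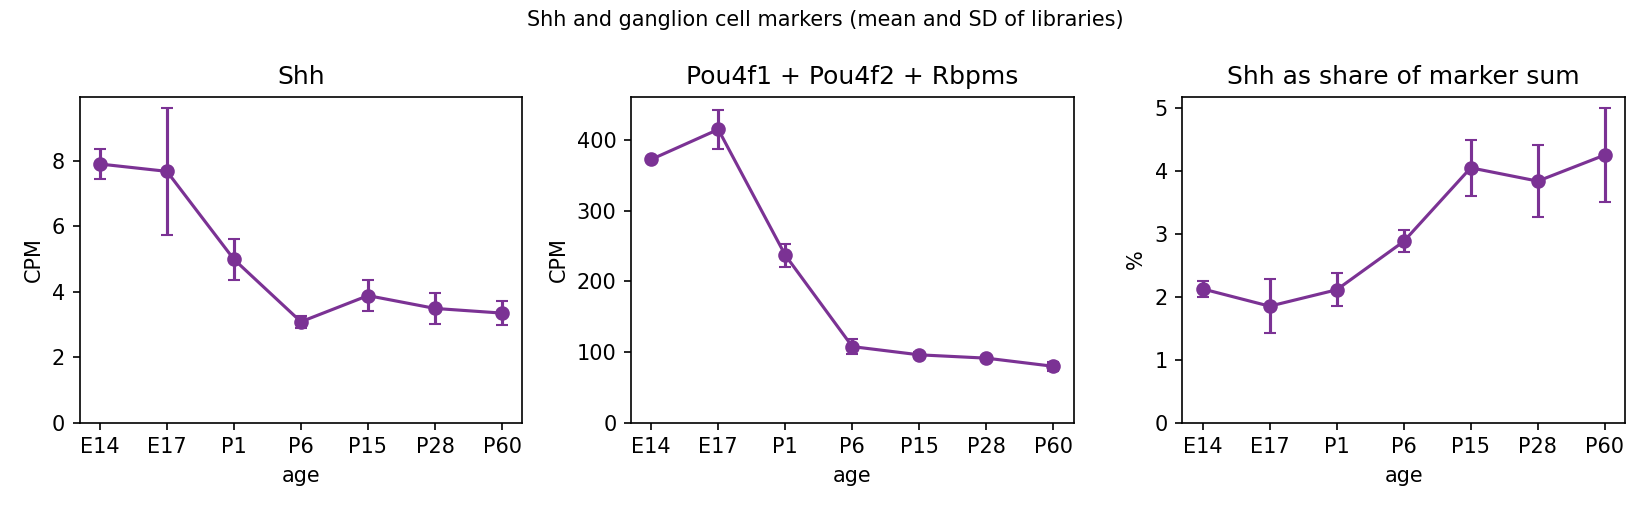
Shh (CPM, left), the summed CPM of Pou4f1, Pou4f2 and Rbpms (middle) and Shh as a percentage of that sum (right) by age. Points are means and bars SD of the 3 to 6 libraries of an age. Shh and the markers were both lower after P1, and the percentage was 2.11 at P1 and 4.25 at P60, a rise that is not seen with the wider list of 12 markers.

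The rest of the pathway was described by 45 other genes in 5 groups, of which 42 passed the filter on low values. In mature against embryonic retina 28 of the 42 fell (40.4% of all features fell), 12 rose (35.0% of all features rose) and 2 did not pass the test. Their median log2 fold change was -0.63, against -0.06 for all features. From P1 to P6, 18 fell and 11 rose, against 20.4% and 18.0% of all features.

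Of the ligands and genes of ligand release, 4 of 6 tested fell and 2 rose in mature retina, against 40.4% and 35.0% of all features. Dhh, which encodes Desert hedgehog, went the other way from Shh. Its mean was 0.141 CPM at E14 (0 to 3 reads per library), 0.573 CPM at E17, 0.799 CPM at P1, 11.9 ± 1.8 CPM at P6, 32.5 ± 6.0 CPM at P15, 43.0 ± 3.8 CPM at P28 and 56.9 ± 9.1 CPM at P60. The P60 libraries ran from 46.2 to 67.8 CPM and the P1 libraries from 0.245 to 1.36 CPM. Dhh rose by 5.04 on the log2 scale (SE 0.12, adjusted p = 2.8e-26) in mature against embryonic retina, and from P1 to P6 by 2.86 (SE 0.19, adjusted p = 1.1e-13). Its annotation overlaps with the gene Rhebl1 on the same strand over 3389 bases. Rhebl1 itself was at 3.49 CPM at E14 and 3.01 CPM at P60 on average, and how reads of the shared bases were split is not given in the sources used here. Indian hedgehog (Ihh) had 0 to 3 reads in every library and was not tested. Scube1 and Scube3, which encode secreted proteins that help release the ligand, fell, with log2 fold changes of -2.40 (SE 0.16, adjusted p = 4.4e-15) and -1.72 (SE 0.07, adjusted p = 8.4e-20). Scube2, of the same family, rose by 0.55 on the log2 scale (SE 0.18, adjusted p = 0.0086) at a low level, with means of 0.211 CPM at E14, 1.49 CPM at E17 and 2.06 CPM at P60, and the embryonic and mature libraries overlapped.

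The co-receptors Gas1, Cdon and Boc, which bind the ligand beside Ptch1, fell in mature against embryonic retina but did not move alike from age to age. The embryonic and mature libraries overlapped for Gas1 and Boc but not for Cdon. Gas1 rose from 10.01 ± 1.1 CPM at E14 to 29.0 ± 2.7 CPM at E17 (log2 fold change 1.45, adjusted p = 3.2e-07) and 42.3 ± 4.8 CPM at P1. It then fell to 9.69 ± 1.4 CPM at P6, near its E14 level, and was at 7.19 ± 1.4 CPM at P15 and 5.50 ± 1.2 CPM at P60. Cdon was highest at P6 (346 ± 26.9 CPM) and rose from P1 to P6 (log2 fold change 0.40, SE 0.07, adjusted p = 5.0e-05), the step in which all 7 genes above fell. Boc was at 9.06 ± 1.1 CPM at E14, 4.33 ± 0.70 CPM at E17 and 2.41 ± 1.4 CPM at P6. It was at 4.30 ± 1.4 CPM at P15, 4.39 ± 0.70 CPM at P28 and 5.15 ± 1.3 CPM at P60. The mature means were thus near or above that at E17 and below that at E14. Boc was 0.40 lower on the log2 scale in mature than in embryonic retina (SE 0.16, adjusted p = 0.025). From P6 to P15 it rose by 0.69 (SE 0.25, adjusted p = 0.032). Lrp2, a large endocytic receptor that binds Shh, rose by 1.01 on the log2 scale (SE 0.14, adjusted p = 6.7e-08). Its embryonic and mature libraries overlapped, with the lowest P60 library at 15.3 CPM. Lrp2 was at 17.4 ± 0.67 CPM at E14 and highest at P15 (49.0 ± 3.2 CPM). It was at 30.1 ± 4.7 CPM at P28, lower than at P15 (adjusted p = 0.046), and at 31.2 ± 10.7 CPM at P60.

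Of the genes that relay the signal in the cilium, 7 of 11 fell and 3 rose, against 40.4% and 35.0% of all features. Gpr161, a receptor of the cilium that holds the pathway down, fell by 2.83 on the log2 scale (SE 0.09, adjusted p = 1.5e-23), from 57.2 ± 3.2 CPM at E14 to 7.46 ± 1.5 CPM at P60. Evc2 and Evc, whose products bind Smo at the base of the cilium, had log2 fold changes of -2.0 (SE 0.17, adjusted p = 3.2e-12) and -1.40 (SE 0.12, adjusted p = 7.1e-12). Of the regulators of Gli proteins, 6 of 13 fell and 6 rose, shares not far from those 40.4% and 35.0% of all features. Kif7, a kinesin of the cilium tip, fell by 1.69 (SE 0.17, adjusted p = 1.7e-10). Sufu, which holds Gli proteins in the cytoplasm, fell by 0.40 (SE 0.10, adjusted p = 0.00061), with ranges that overlapped, and was at 36.3 ± 2.2 CPM at E14 and 31.6 ± 8.0 CPM at P60. Dyrk2, a kinase, and Spop, an adaptor for the breakdown of Gli proteins, rose by 1.34 (SE 0.07, adjusted p = 1.1e-17) and 1.08 (SE 0.07, adjusted p = 5.1e-15). Dyrk2 was highest at P6 (599 ± 13.1 CPM).

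Of the genes listed as targets in other tissues, 7 of 7 tested fell, against 40.4% of all features, with a median log2 fold change of -3.20, against -0.06 for all features. Ccnd1, which encodes cyclin D1, was at 1438 ± 3.7 CPM at E14, 1490.3 ± 118 CPM at P1 and 79.5 ± 12.6 CPM at P6, and it fell by 6.27 on the log2 scale in mature retina (SE 0.08, adjusted p = 1.4e-34). Sfrp1, a secreted Wnt inhibitor, fell by 3.67 (SE 0.12, adjusted p = 1.3e-22). Mycn, a growth regulator, fell by 3.32 (SE 0.12, adjusted p = 2.2e-21). Their times differed. Sfrp1 was already lower at E17 (36.6 ± 2.2 CPM) than at E14 (73.8 ± 2.4 CPM, adjusted p = 0.00085), whereas Mycn kept 42.5 ± 5.3 CPM at P6 and was at 7.86 ± 1.1 CPM at P15. These genes respond to other pathways too. Foxf1 and Nkx2-2 did not pass the filter.

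**Figure D5:**
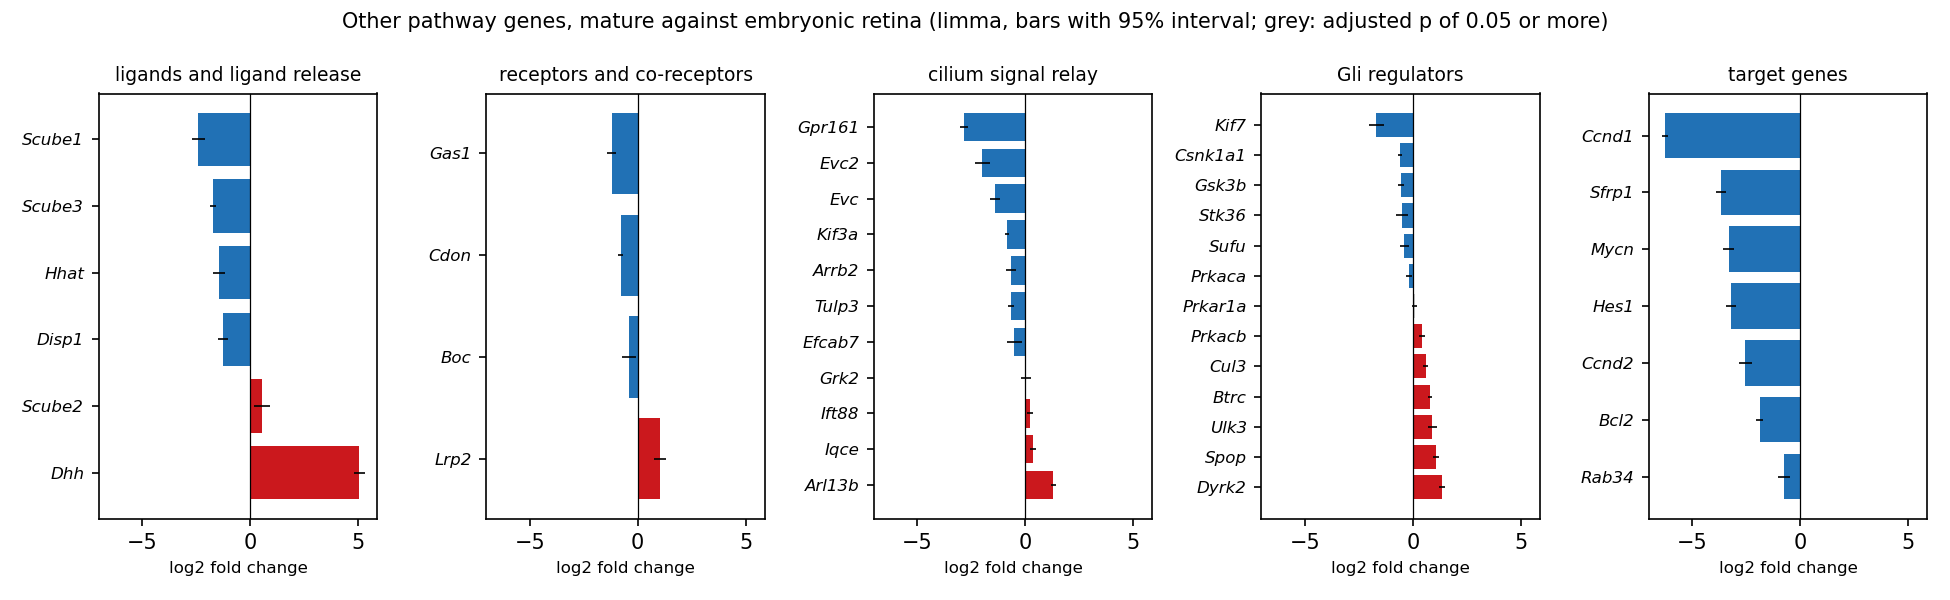
Log2 fold change of mature against embryonic retina (horizontal axis) for 41 of the 42 other pathway genes tested, in 5 groups. Bars are limma estimates with 95% intervals, red rose and blue fell. Dhh rose most (5.04) and Ccnd1 fell most (-6.27), and the 7 target genes all lie below 0.

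The genes whose profile was closest to each member were found by the root mean square (RMS) difference of the 7 age means of log2(CPM + 1), each centered on its own mean, as a description over 7 ages. Closest to Gli1 were Ndc80, Exo1 and Bub1 (RMS 0.23 for each), which act in cell division or DNA repair. Bub1 had means of 59.9 CPM at E14, 43.7 CPM at P1 and 1.21 CPM at P6. Closest to Hhip were the histone genes Hist1h2bn (RMS 0.12) and Hist1h3b (0.21) and the mitosis gene Cdca8 (0.20). Closest to Gli2 were Fam83d (0.15), Rassf2 (0.16) and Ccdc60 (0.17), and closest to Smo were Prex1 (0.09), Pard3b (0.10) and St6gal1 (0.11). Gli3, with its peak at P1, had the fewest features within an RMS of 0.5, at 35, and the closest were Cxcr4 (0.28), LOC101056071 (0.28) and St8sia4 (0.33). Gli1 had 52 such features, Hhip 86, Gli2 195 and Smo 757. For Shh (closest to Batf3, Gm40266 and Vav3) and Ptch1 (closest to Med26, 9430032L10Rik and Snhg3), 8895 and 12349 features lay within that distance. Shh and Ptch1 changed less on the log2(CPM + 1) scale between embryonic and mature retina than the other members, and likeness to their profiles is unspecific.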

How the data were processed

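Total RNA of whole retinas was sequenced in 27 libraries from 7 ages. The authors aligned reads to mm10 (GRCm38) with STAR, per the labels and methods, and deposited 1 table of CPM values with 1 column per library. The gene annotation and the use of strand in counting are not given in the sources used here. The labels give 3 retinas per library, whereas the study's methods describe larger pools, and single mice for some P60 libraries. Low values were whole multiples of 1 read, which gave back the reads (100% of values within 0.1 of a whole read). E14 replicate 1 has a step too close to a round decimal to be judged by the automatic check, so edgeR was also run without it, an alternative added after seeing the data.

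Values entered as log2(CPM + 1). The 31760 features that reached 1 CPM in 3 or more libraries were fitted with limma 3.58.1 (R 4.3.3, mean-variance trend, all ages in 1 fit). Tests were two-sided and adjusted by the Benjamini-Hochberg method over these features, and a gene was called at an adjusted p under 0.05. The fits were tested on simulated data with a single spread for all features and a single size of change. That size was larger than the smaller steps between ages here. The simulation thus does not bear on calls of those steps or on genes near the floor. Pairs of genes were compared with exact permutation tests (scipy 1.17.1). Alternatives included edgeR 4.0.16 and DESeq2 1.42.0 on the recovered reads. The floor of 3 reads covers counting error only. The 95% intervals of log2 fold changes are limma's. They and limma's p-values measure the spread between libraries of the same age, and libraries are mostly pools. The permutation tests pooled the ages of a group and divided libraries without regard to age, so that their p-values do not measure that spread alone. Replicate numbers did not pair libraries: over 20 pairs of same-numbered libraries the correlations of deviations ran from -0.096 to 0.093.

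The members and lists were chosen with earlier results of these data known. Named genes were the 7 members, the up to 3 other pathway genes of largest absolute log2 fold change in each group, pathway genes fixed by name (Dhh, Ihh, Boc, Cdon, Gas1, Sufu, Kif7 and Ccnd1) and the 3 features closest to each member. Scube2 was named after its values were seen. A gene of this rule is not reported here. Grk2 is listed as Adrbk1. Where a symbol had several entries (Dhh has 2), that with the highest mean was used. Exon length is the union of annotated exons (GENCODE M21).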

Additional observations from a re-analysis of the deposited data

Results flagged for a closer look

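In each of the 28 sets of libraries of 1 gene at 1 age with 4 to 6 libraries, the highest and lowest library were compared with the rest by Dixon's test, and 5 sets passed. Chance passes about 1 of 20 sets of normally distributed values. That rate does not hold for mature Gli1, at 0 to 2 reads. Shh at P15 was lowest in replicate 4 (3.16 CPM), with the others at 4.08 to 4.15 CPM. Gli2 at P15 was highest in the same library (3.16 CPM), with the others at 1.98 to 2.14 CPM. Smo at P1 was highest in replicate 4 (105.3 CPM), with the others at 98.9 to 99.6 CPM, a small spread in absolute terms. Gli1 at P28 was highest in replicate 3 (0.135 CPM, a single read), with the others at 0, where any single read passes. Hhip at P28 was highest in replicate 2 (1.69 CPM), with the others at 0.812 to 0.933 CPM.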

How the results depend on the processing

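The fall of all 7 genes from embryonic to mature retina and from P1 to P6 was called under each alternative that tested them and without each library, except that requiring a log2 fold change of at least 1 as well left out Shh and Ptch1 in both. None of 2106 alternative values of a single member reversed a call, 33 lost one and 25 gained one. The 6 pair differences kept their calls under each alternative run, as did that of Shh and its 3 markers (1.21), except that the wider list of 12 markers, tried after seeing the data, turned it to -0.25. The smaller steps depended on the processing, and the cause was not tested. For P60 against P28, the count of called members (1) was 0 with no filter, with the replicate block, with a fit of the compared ages alone and with the fold limit, and 2 with a mean of at least 10 CPM, and 0 to 2 without single libraries. For E17 against E14 (1) it was 0 with a pseudocount of 0.1 and with the fold limit, 4 with a fit of the compared ages, 2 with edgeR (2 without E14 replicate 1) and 3 with DESeq2, and 0 to 2 without single libraries. For P1 against E17 (0) it was 3 with a fit of the compared ages, 1 with edgeR (1 without E14 replicate 1) and 3 with DESeq2, and 0 to 1 without single libraries. For P15 against P6 (5) it was 2 with the fold limit.

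Of the other pathway genes, the count for mature against embryonic (40) was 21 with the fold limit, for P6 against P1 (29) it was 14, for P15 against P6 (17) 6, for P60 against P28 (8), P28 against P15 (5) and P1 against E17 (7) 0, and for E17 against E14 (7) 3. With a fit of the compared ages it was 0 for P60 against P28, 12 for P1 against E17 and 11 for E17 against E14. The replicate block gave 1 for P60 against P28 and, with its numbers pairing no libraries, changed no other count by over 1.5 times. In all, 6 of 20 libraries compared correlated best with their own number. For P28 against P15 it was 3 with a pseudocount of 0.1, with median-of-ratios scaling and with edgeR, and 2 with edgeR without E14 replicate 1. For E17 against E14 it was 4 with a mean of at least 10 CPM. Without single libraries it was 3 to 14 for P60 against P28 (3 or 4 without P28 replicate 1, 2 or 4 or P60 replicate 4 or 5, and 13 or 14 without P60 replicate 1 or 2), 1 to 6 for P28 against P15 (1 to 3 without any E14, E17, P15 or P28 library or P6 replicate 2) and 11 to 18 for P15 against P6 (11 without P6 replicate 2). The edgeR scaling moved the median of all features in mature against embryonic retina by 0.10, from -0.06 to 0.04, and Ptch1 then fell by 0.20 in place of 0.30. Depth limits Gli1 and Ihh in mature retina, at 0 to 2 and 0 to 3 reads per library.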
